A study of Mus musculus with 12 samples.

Results

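Zinc given in the drinking water was studied on its own, without the glucocorticoid that other mice of the series received. The comparison was formed by the labels of the deposited count table: 3 mice that drank 25 mM ZnSO4 were set against 3 mice that drank normal water, 6 of the 12 mice of the series. Both groups were C57BL/6J females kept free of specific pathogens and aged 8 to 14 weeks. ZnSO4 was dissolved in ultrapure water and given for 7 days, and mice of both groups were injected with PBS, the vehicle, 2 h before the ileum was taken. The other 6 mice, also on water or ZnSO4, were injected with 200 µg dexamethasone (Dex) in place of PBS; they entered the model fit, and they serve below as separate mice for the same zinc comparison. The measurement was stranded single-end RNA-seq of whole ileum tissue, given as raw counts per gene. The 6 libraries held 11190199 to 11827487 counts, so that depth was nearly equal.

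Zinc is a cofactor of many enzymes and transcription factors, and its free level in cells is kept low. In the intestine, zinc enters the enterocyte from the lumen through the importer Slc39a4 (ZIP4), is bound by metallothioneins, small cysteine-rich proteins, and is moved into vesicles or out of the cell by exporters of the Slc30a (ZnT) family. Excess zinc is sensed by the transcription factor Mtf1, which binds metal response elements (MREs) in promoters such as those of the metallothioneins. The ileum is also a barrier organ: its epithelium answers the gut microbes with antimicrobial proteins and interferon-stimulated genes, and lymphocytes lie between the epithelial cells.

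Of 15938 genes tested, 271 (1.70%) were called different between ZnSO4 and water, at an adjusted p under 0.05 and a log2 fold change (LFC) above 0.8 in size. Higher with ZnSO4 were 119 genes (0.747%), led, among those with a mean of at least 1 CPM (counts scaled to library size), by the metallothioneins Mt4, Mt2 and Mt1. Lower with ZnSO4 were 152 genes (0.954%), led at the same minimum level by Meltf, Saa1 and Acta1. Enzymes of xenobiotic, steroid and retinoid metabolism were among the rises. Among the falls were antimicrobial and other microbe-induced epithelial genes, interferon-stimulated genes, antigen presentation genes and genes of T cells and intraepithelial lymphocytes. Every adjusted p below comes from edgeR's quasi-likelihood test over all genes with Benjamini-Hochberg adjustment, and LFC is ZnSO4 over water. With no cut-off on size, 742 genes (4.66%) had an adjusted p under 0.05, and 8283 genes had an LFC below 0. These counts over all 15938 genes are the background for each list below. The 3 and 3 mice did not overlap in 4030 genes (25.3%), so that a gap between the groups was common and is read below only with the test. When each of the 12 libraries was left out in turn, 54 of the 119 rises and 70 of the 152 falls kept their call in all 12 fits; a gene named below did so unless another count is given. The counts fell to 78 and 96 without water + PBS replicate 1 and to 77 and 98 without ZnSO4 + PBS replicate 3, and the falls to 94 without ZnSO4 + PBS replicate 1. Replicate 2 of both PBS groups was rich in B cell transcripts (values below); with both left out, in a fit added after the data were seen, 73 rises and 84 falls were called.

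**Figure D1:**
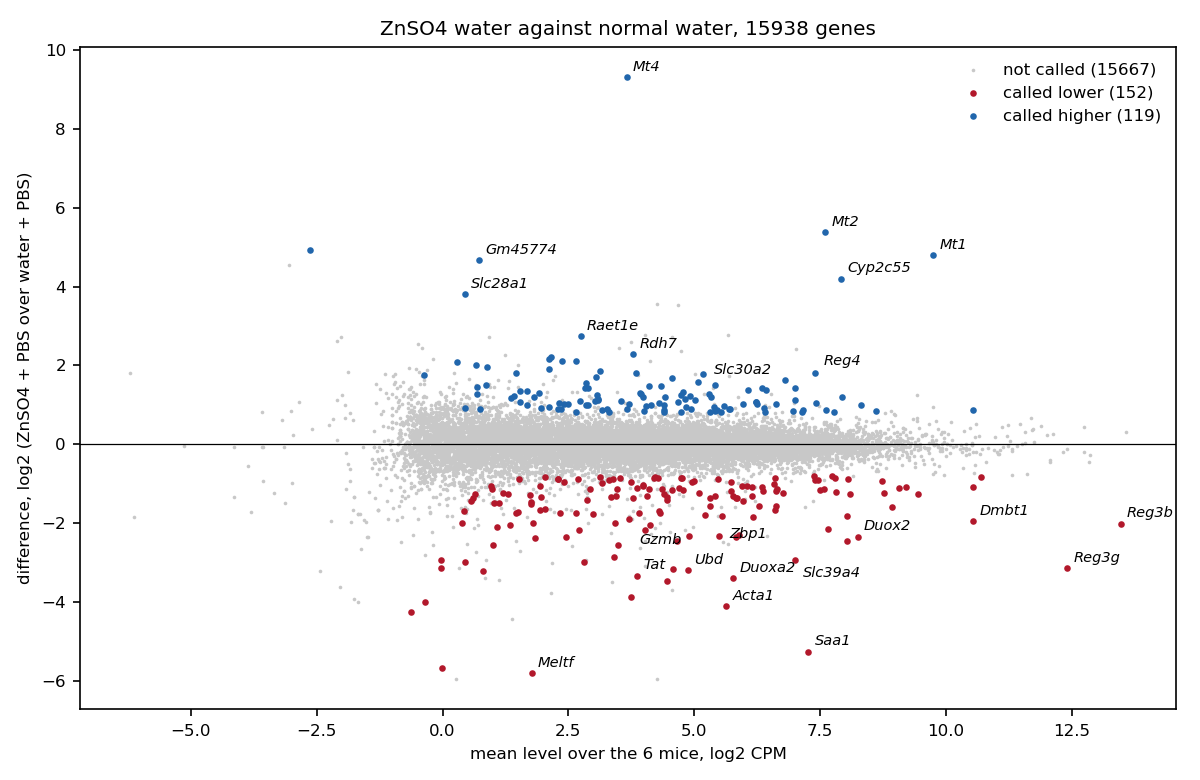
Each point is a gene, with its mean level over the 6 mice in log2 CPM (counts scaled to library size) on the x axis and the LFC of ZnSO4 over water on the y axis; 119 called rises are blue, 152 called falls are red, and the gene at 0 in all 6 mice, 1 of the 15938, is not drawn. Among the called genes with a mean of at least 1 CPM, Mt4 and Mt2 stand highest and Meltf and Saa1 lowest.

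The metallothionein genes had the largest LFCs among the called rises with a mean of at least 1 CPM. Mt1 had 850.2, 700.3 and 490.3 normalised counts in the water mice and 21988, 11971 and 22541 in the ZnSO4 mice (a 27.7-fold rise; LFC 4.79 ± 0.28 (SE), adjusted p = 9.07e-06). Mt2, its neighbour on chromosome 8, had 159.5, 97.3 and 55.1 normalised counts in the water mice and 4941, 2669.6 and 5357 in the ZnSO4 mice (a 41.6-fold rise; LFC 5.38 ± 0.37 (SE), adjusted p = 4.05e-05). In both genes ZnSO4 replicate 2 was the lowest of its group and still many times above every water mouse. Mt4, a metallothionein known from stratified epithelia, had 0.973, 0 and 0 normalised counts in the water mice, a total of 1 read, and 304, 77.8 and 477 in the ZnSO4 mice. On raw reads the ratio was 913, with a 95% exact interval of 163 to 36100 that covers counting error only, and edgeR gave an adjusted p of 0.00105. Mt3 was below the filter on low counts, so that each of the 3 tested metallothioneins rose. Mtf1, the zinc-sensing factor on the same list, had 601, 607 and 613 normalised counts in the water mice and 579, 527 and 556 in the ZnSO4 mice; the groups did not overlap but differed little (LFC -0.13 ± 0.11 (SE), adjusted p = 0.56).

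The annotated antisense gene Gm45774, which overlaps Mt2 on the opposite strand, had 0.973, 2.01 and 0.950 normalised counts in the water mice and 37.7, 30.2 and 40.8 in the ZnSO4 mice (LFC 4.67 ± 0.40 (SE), adjusted p = 0.000203). Exons of other genes cover 73.5% of the exon bases of Mt2 on that strand, and the strand setting of the counting is not given in the sources used here. Reads of Mt2 and Gm45774 can therefore not be told apart with certainty.

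MREs are the letters that Mtf1 binds, and the windows around the starts of these genes are shown for them. The 7-base core was searched on both strands, as TGCACNC or TGCGCNC, in RefSeq's promoter windows of 300 bases (250 before the annotated start and 50 after it; build GRCm38.p6). Mt2 held 4 matches, Mt1 held 3, Slc30a2 held 2 and Mt4 held 1. The stretches with the matches are printed 5′ to 3′ for the 3 metallothioneins and for Slc30a2, the zinc transporter that rose, with the cores in capitals.
Mt1 (chr8:94179058-94179080, plus strand): tcccgctgTGCACACtggcgctc
Mt1 (chr8:94179089-94179118, plus strand): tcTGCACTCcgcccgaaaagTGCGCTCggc
Mt2 (chr8:94172387-94172582, plus strand): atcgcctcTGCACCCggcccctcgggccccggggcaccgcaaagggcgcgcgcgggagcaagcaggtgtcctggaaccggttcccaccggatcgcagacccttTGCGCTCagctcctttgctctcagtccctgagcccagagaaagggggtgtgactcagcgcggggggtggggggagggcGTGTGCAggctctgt
Mt2 (chr8:94172618-94172636, plus strand): ggtcGTGCGCAggcccagg
Mt4 (chr8:94137105-94137127, plus strand): actgggccGTGTGCAgggcgtct
Slc30a2 (chr4:134343244-134343280, plus strand): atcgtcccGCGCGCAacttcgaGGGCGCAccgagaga

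The second stretch of Mt1 and of Mt2 lies after the annotated start. A core of this kind is common. At least 1 stood in 39.3% of the 11429 tested genes with a window and in 39.4% of the 99 called rises with a window, and at least 3 stood in 3.67% and 7.07%. Of the 106 called falls with a window, 22.6% held at least 1 and 1.89% at least 3. These shares are a description, and a match is not a site.

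The Slc30a and Slc39a families carry zinc across membranes, and 1 gene of each was called, in opposite directions. Slc30a2, a vesicular zinc exporter, had 787, 542 and 532 normalised counts in the water mice and 2235, 1543 and 1964 in the ZnSO4 mice (LFC 1.63 ± 0.18 (SE), adjusted p = 0.000898). Slc39a4, the luminal zinc importer, had 2447, 2571 and 2699 normalised counts in the water mice and 307, 387 and 307 in the ZnSO4 mice (a 7.70-fold fall; LFC -2.95 ± 0.15 (SE), adjusted p = 4.57e-06). The water mice lay close together, and each ZnSO4 mouse was far below them. Of the 8 tested Slc30a genes the other 7 were not called, with LFCs from -0.72 to 0.44. Of the 12 tested Slc39a genes the other 11 were not called, with LFCs from -0.79 to 0.20. Without water + PBS replicate 2 or ZnSO4 + PBS replicate 2, Slc39a10, a plasma membrane importer, passed too, so that the count of falls was 2. Over all mice Slc39a10 had 200.4, 179 and 187 normalised counts in the water mice and 113, 123 and 92.6 in the ZnSO4 mice (LFC -0.79 ± 0.17 (SE), adjusted p = 0.0229), just under the cut-off on size. None of the 18 iron and copper genes tested was called in either direction, and 1 had an adjusted p under 0.05.

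**Figure D2:**
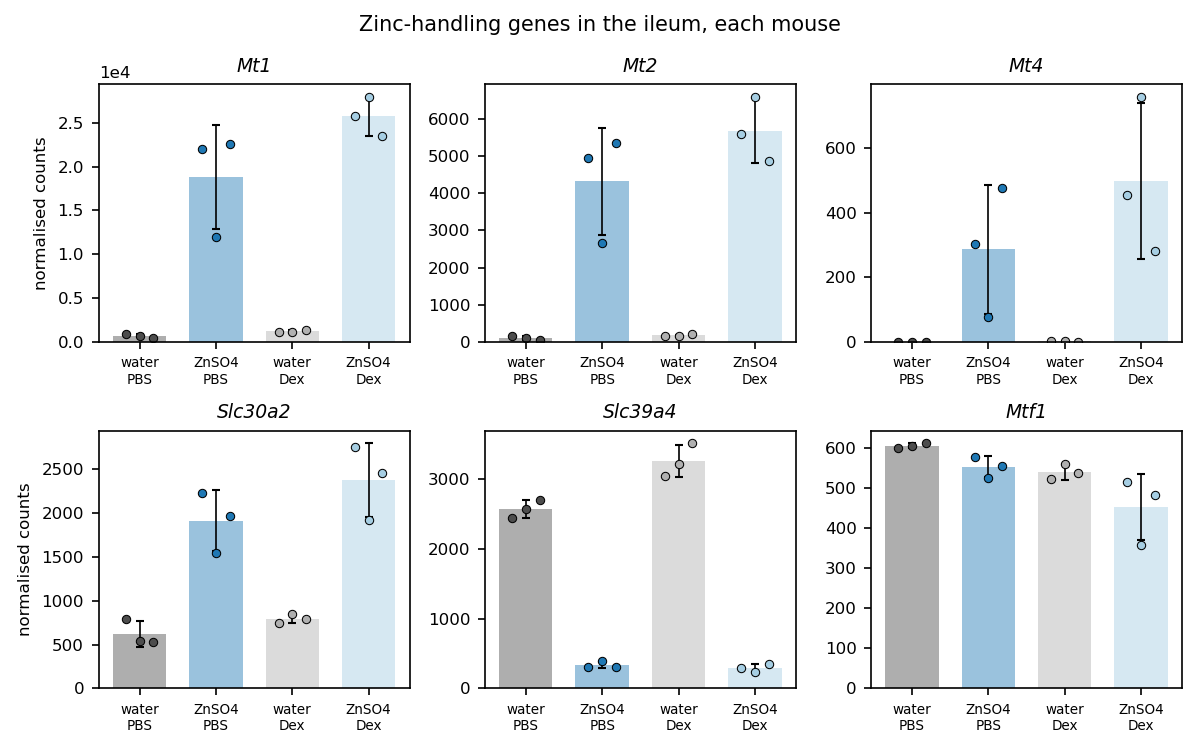
Normalised counts per mouse (y axes, linear from 0) of 6 zinc-handling genes in the 4 groups of the series (x axes); points are mice, bars are means of 3 mice and error bars are SDs. Mt1, Mt2, Mt4 and Slc30a2 are higher and Slc39a4 is lower in both ZnSO4 groups, while Mtf1 differs little.

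Enzymes that process drugs, steroids and retinoids were among the rises. Of 56 tested xenobiotic enzymes and efflux pumps, 10 were called higher and 0 lower (0.747% and 0.954% over all genes tested). The median LFC was 0.59, against -0.01 over all genes tested. Ces1g, a carboxylesterase that cleaves esters and triglycerides, had 35.02, 54.2 and 39.9 normalised counts in the water mice and 163, 133 and 170.4 in the ZnSO4 mice (LFC 1.85 ± 0.28 (SE), adjusted p = 0.00472). Aadac, an esterase of the endoplasmic reticulum, had 23.3, 24.1 and 19.00 normalised counts in the water mice and 72.6, 106 and 109 in the ZnSO4 mice (LFC 2.11 ± 0.35 (SE), adjusted p = 0.00729). Ugt2b5, which couples glucuronic acid to its substrates, rose less (LFC 1.0 ± 0.16), and 56.4% of its 31-base stretches are found elsewhere among genes, so that its count is uncertain. In these 3 genes every ZnSO4 mouse stood above every water mouse. Cyp2c55, a cytochrome P450 known as a target of the xenobiotic receptors, had 179, 291 and 380.1 normalised counts in the water mice and 5119, 9044 and 1466 in the ZnSO4 mice. Its ZnSO4 mice were all above the water mice but differed widely among themselves, and the call (LFC 4.20 ± 1.08, adjusted p = 0.0495) held in only 2 of the 12 fits, which lacked ZnSO4 + Dex replicate 2 or 3; in the others the adjusted p was 0.0547 to 0.164. The other 6 calls held in 6 to 9 of the 12 fits. They were the P450s Cyp2c65 and Cyp2d26, the oxygenase Fmo5, the transferases Ugt2b36 and Sult1a1, and the efflux pump Abcc6. Cyp2c65 had 431, 565 and 526 normalised counts in the water mice and 1345, 1356 and 1357 in the ZnSO4 mice, with a clear gap. Cyp2c65 (LFC 1.41) lost its call without any water + PBS mouse or any ZnSO4 + PBS mouse (adjusted p 0.0573 to 0.111). Cyp2d26 (LFC 1.38) lost its call without water + PBS replicate 1 or 2, ZnSO4 + PBS replicate 1 or 3 or water + Dex replicate 1 (adjusted p 0.0508 to 0.109). Fmo5 (LFC 0.86) lost its call without water + PBS replicate 1 or 2, any ZnSO4 + PBS mouse or water + Dex replicate 1 (adjusted p 0.0543 to 0.128). Ugt2b36 (LFC 0.89) lost its call without water + PBS replicate 1 or 2 or ZnSO4 + PBS replicate 1 (adjusted p 0.0532 to 0.0659). Sult1a1 (LFC 0.82) lost its call without water + PBS replicate 1 or 3 or ZnSO4 + PBS replicate 1 (adjusted p 0.0621 to 0.0759). Abcc6 (LFC 0.99) lost its call without water + PBS replicate 1 or 2 or ZnSO4 + PBS replicate 3 (adjusted p 0.0534 to 0.0635). Nr1i2, the pregnane X receptor, had 959, 956 and 1141 normalised counts in the water mice and 1189, 966 and 958 in the ZnSO4 mice and was not called (LFC 0.03). The count of 10 was 4 without water + PBS replicate 1, 6 without water + PBS replicate 2, 5 without ZnSO4 + PBS replicate 1 and 3 without both libraries rich in B cell transcripts.

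Steroid enzymes went the same way: 6 of 19 tested rose and 0 fell (0.747% and 0.954% over all genes tested), and 5 kept the call in all 12 fits. Hsd3b2 and Hsd3b3 belong to the 3β-hydroxysteroid dehydrogenases, which oxidise steroid hormones and their precursors. Hsd3b3 had 166, 195 and 213 normalised counts in the water mice and 485, 574 and 664 in the ZnSO4 mice (LFC 1.59 ± 0.16 (SE), adjusted p = 0.00042). Hsd3b2 had 17.5, 19.1 and 17.1 normalised counts in the water mice and 66.00, 84.2 and 89.8 in the ZnSO4 mice (LFC 2.15 ± 0.25 (SE), adjusted p = 0.000983), and 36.3% of its 31-base stretches are shared with other genes. The aldo-keto reductases Akr1c19, Akr1c14 and Akr1c13 lie on chromosome 13 and rose with LFCs of 1.36, 1.06 and 1.02. Akr1c19 had 447, 430.4 and 409 normalised counts in the water mice and 975, 953 and 1384 in the ZnSO4 mice, with a clear gap between the groups. The sixth call was the lipid droplet enzyme Hsd17b13. Hsd17b13 (LFC 1.02) lost its call without any water + PBS mouse or ZnSO4 + PBS replicate 1 (adjusted p 0.0586 to 0.0737).

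Retinoid genes gave 4 rises and 0 falls among 36 tested (0.747% and 0.954% over all genes tested). Rdh7, a retinol and steroid dehydrogenase, had 48.6, 42.1 and 70.3 normalised counts in the water mice and 338, 238 and 208 in the ZnSO4 mice (LFC 2.28 ± 0.26 (SE), adjusted p = 0.000983). Lrat, which esterifies retinol for storage, had 161, 205 and 233 normalised counts in the water mice and 444, 379.8 and 491 in the ZnSO4 mice (LFC 1.14 ± 0.14 (SE), adjusted p = 0.00141). Aldh1a1, which makes retinoic acid, had 2292, 2176 and 2782 normalised counts in the water mice and 4637, 4150.3 and 5593 in the ZnSO4 mice (LFC 0.99 ± 0.15 (SE), adjusted p = 0.0053). In each of these 3 the groups were apart. The other rise was Bco1, which cleaves carotenes to retinal. Bco1 (LFC 1.30) lost its call without any water + PBS mouse or ZnSO4 + PBS replicate 3 (adjusted p 0.0549 to 0.0814).

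Glutathione and antioxidant genes moved both ways: 4 of 49 rose and 2 fell (0.747% and 0.954% over all genes tested). Gstm1, a glutathione transferase, had 266, 294 and 280.3 normalised counts in the water mice and 696, 556 and 669.7 in the ZnSO4 mice (LFC 1.19 ± 0.12 (SE), adjusted p = 0.000492). Gpx2, the glutathione peroxidase of the gut epithelium, had 8638, 6607 and 5698 normalised counts in the water mice and 2939, 2628 and 3373 in the ZnSO4 mice (LFC -1.23 ± 0.15 (SE), adjusted p = 0.00115). The remaining calls were less steady. Gsta4 lost its call without ZnSO4 + PBS replicate 1 or 3 (adjusted p 0.0534 to 0.0723), Gclm without water + PBS replicate 1 or 2 or ZnSO4 + PBS replicate 1 or 3 (adjusted p 0.0544 to 0.0624), and Cat without ZnSO4 + PBS replicate 1 (there by its size, LFC 0.74); their LFCs were 1.21, 0.82 and 0.82. Gsr (LFC -0.87) lost its call by size without water + PBS replicate 1 or ZnSO4 + PBS replicate 2 (LFC -0.79 to -0.63). Without ZnSO4 + PBS replicate 1, 1 rise was left in the list.

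Lipid and sugar metabolism changed in few genes. Of 37 fatty acid oxidation genes 2 rose (0.747% over all genes tested). They were the peroxisomal oxidases Acox2 (LFC 1.28 ± 0.18) and Hao2 (LFC 1.26 ± 0.26). Hao2 lost its call without ZnSO4 + PBS replicate 3 (adjusted p = 0.0792). Pck1, the key enzyme of gluconeogenesis, had 237, 214 and 107 normalised counts in the water mice and 660.0, 563 and 686 in the ZnSO4 mice (LFC 1.77 ± 0.32 (SE), adjusted p = 0.0106). Hk2, which commits glucose to glycolysis, moved the other way, with 1390.1, 1168 and 1436 normalised counts in the water mice and 488, 404 and 446 in the ZnSO4 mice (LFC -1.58 ± 0.13 (SE), adjusted p = 0.000158). Pfkfb3, an activator of glycolysis, was called lower (LFC -1.37, adjusted p = 0.038) but kept the call only in the 2 fits without ZnSO4 + Dex replicate 1 or 2 (adjusted p 0.0502 to 0.135 in the others). The other 28 of the 31 sugar genes were not called.

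The list of microbe-induced epithelial genes held the most falls. Of 55 tested, 23 were called lower and 1 higher (0.954% and 0.747% over all genes tested), with a median LFC of -0.95. In all 12 fits 18 of the falls and the rise held, and 16 falls were called without both libraries rich in B cell transcripts. The lists were written with earlier results of these data known, so that this count and rank only describe the list. Reg3g and Reg3b encode secreted lectins that kill bacteria. Reg3g had 154290.0, 109954 and 68946 normalised counts in the water mice and 9081, 13115 and 15714 in the ZnSO4 mice (an 8.79-fold fall; LFC -3.14 ± 0.39 (SE), adjusted p = 0.00141). Reg3b had 280357, 193602 and 147603 normalised counts in the water mice and 46322, 47091 and 60554 in the ZnSO4 mice (LFC -2.01 ± 0.35 (SE), adjusted p = 0.00946). The lowest water mouse was above the highest ZnSO4 mouse in both, and water replicate 1 was the highest. Saa1, a serum amyloid A protein that carries retinol and is induced by adherent bacteria, had 4309.5, 4063 and 1876 normalised counts in the water mice and 23.6, 97.9 and 144 in the ZnSO4 mice (a 38.4-fold fall; LFC -5.26 ± 0.54 (SE), adjusted p = 0.000456). Other genes contain 46.8% of its 31-base stretches, so that the split of reads with its paralogue Saa2 is uncertain. For Saa2 the ZnSO4 mice held 2 reads in all, and the ratio of water to ZnSO4 was 21.7, with a 95% exact interval of 5.66 to 185. Saa3 fell less (LFC -1.52 ± 0.35) and lost its call without water + PBS replicate 1 or 2, any ZnSO4 + PBS mouse or water + Dex replicate 1 (adjusted p 0.0539 to 0.129).

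The same list holds enzymes that produce oxidants and their partners. Of these Duox2, Duoxa2, Duoxa1 and Nos2 fell. Duox1, Nox1, Noxo1, Noxa1 and Cyba were not called, with LFCs of -1.10, 0.26, 0.52, -0.35 and -0.46. Duox2 makes hydrogen peroxide at the apical membrane, and Duoxa2 is the factor that carries the enzyme there. Duox2 had 6034, 6123 and 5165 normalised counts in the water mice and 986, 1284 and 1141 in the ZnSO4 mice (LFC -2.34 ± 0.25 (SE), adjusted p = 0.000647). Duoxa2 had 1033, 1300.3 and 1075 normalised counts in the water mice and 109, 126 and 87.99 in the ZnSO4 mice (LFC -3.39 ± 0.27 (SE), adjusted p = 0.000119), and Duoxa1 fell too (LFC -2.56 ± 0.35). Nos2, the inducible nitric oxide synthase, had 4869.8, 3764 and 5314 normalised counts in the water mice and 1693, 1348 and 900.3 in the ZnSO4 mice (LFC -1.82 ± 0.32 (SE), adjusted p = 0.0101). In all 4 the groups were apart. Exons on the opposite strand cover 42.8% of the exon bases of Duoxa2.

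A second group builds or edits the surface glycans. Fut2, which adds the fucose that feeds commensals, had 299, 184 and 171 normalised counts in the water mice and 25.5, 40.3 and 44.5 in the ZnSO4 mice (LFC -2.56 ± 0.36 (SE), adjusted p = 0.00304). B3galt5, a galactosyltransferase, had 369, 183 and 80.8 normalised counts in the water mice and 26.4, 34.8 and 25.9 in the ZnSO4 mice (LFC -2.85 ± 0.45 (SE), adjusted p = 0.00572). B3gnt7, which extends keratan and mucin chains, had 1449, 1028 and 777 normalised counts in the water mice and 233, 178 and 226 in the ZnSO4 mice (LFC -2.35 ± 0.21 (SE), adjusted p = 0.000262). Water replicate 1 was the highest of all 6 mice in these 3 genes. Dmbt1, a secreted bacteria-binding protein, and Pla2g5, a secreted phospholipase, fell by 1.96 and 2.19 on the log2 scale. Smaller falls were seen for Tifa (LFC -1.67), a sensor adaptor for bacterial sugars, the cytokine Il18 (-1.35) and the tryptophan-degrading enzyme Ido1 (-1.30). Alpk1, a kinase that senses a bacterial sugar, and Zc3h12a, an RNase that cuts inflammatory transcripts, fell with LFCs of -1.17 and -1.20 in all fits. Tlr2, a receptor for bacterial lipopeptides, the pentraxin Mptx2, the lectin Mbl2 and the adhesion molecule Ceacam10 were called with less support. Tlr2 (LFC -0.87) lost its call without water + PBS replicate 1 or 2 or ZnSO4 + PBS replicate 1 or 2 (adjusted p 0.077 to 0.112). Mptx2 (LFC -1.58) lost its call without water + PBS replicate 1 or 3, any ZnSO4 + PBS mouse or water + Dex replicate 1 (adjusted p 0.052 to 0.119). Mbl2 (LFC -2.94) lost its call without water + PBS replicate 1 or 2 or any ZnSO4 + PBS mouse (adjusted p 0.0512 to 0.0821). Ceacam10 (LFC -0.95) lost its call without any water + PBS mouse, ZnSO4 + PBS replicate 1 or 3, water + Dex replicate 3 or ZnSO4 + Dex replicate 1 or 3 (adjusted p 0.0542 to 0.144). The 1 rise was Reg4, a lectin of secretory cells, with 1047, 569 and 948 normalised counts in the water mice and 2127, 2569.8 and 4279 in the ZnSO4 mice (LFC 1.81 ± 0.29 (SE), adjusted p = 0.00624).

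**Figure D3:**
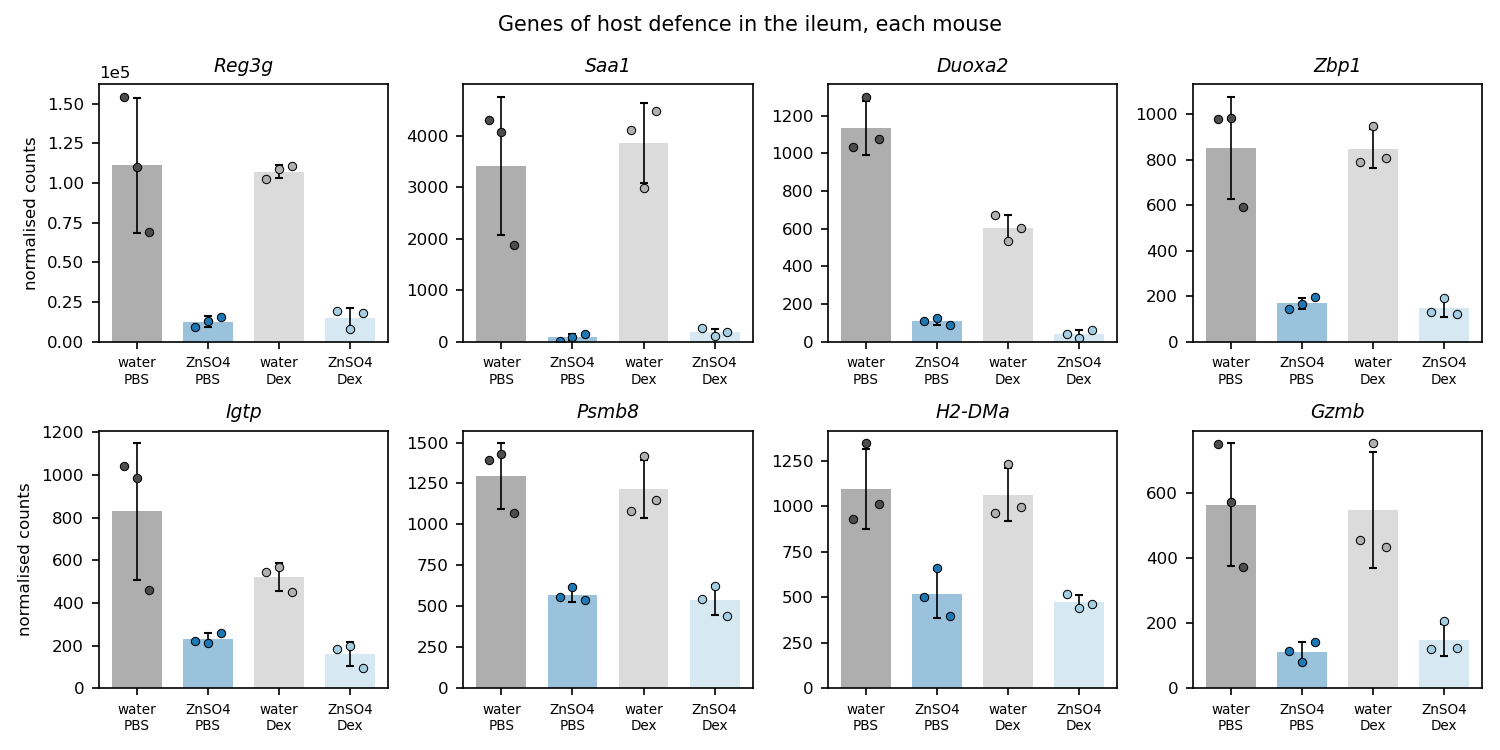
Normalised counts per mouse (y axes, linear from 0) of 8 host defence genes in the 4 groups (x axes); points are mice, bars are means of 3 mice and error bars are SDs. In each gene the ZnSO4 + PBS mice are below all water + PBS mice, and the ZnSO4 + Dex mice are below all water + Dex mice.

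Interferon-stimulated genes were among the falls. Many genes that interferons turn on carry the interferon-stimulated response element (ISRE) in their promoters. All 26 tested interferon-inducible GTPases, proteins that attack vacuoles holding microbes, had an LFC below 0 (median -0.84), against 8283 of the 15938 genes tested. Of the 26, 10 were called lower (0.954% over all genes tested). Gm12250 had 249, 207 and 130.2 normalised counts in the water mice and 49.97, 43.01 and 53.7 in the ZnSO4 mice (LFC -1.99 ± 0.24 (SE), adjusted p = 0.00121). Igtp (Irgm3) had 1041, 984 and 461 normalised counts in the water mice and 223, 213 and 261 in the ZnSO4 mice (LFC -1.83 ± 0.30 (SE), adjusted p = 0.00742). Water replicate 3 was the lowest of the water mice in both and remained above all ZnSO4 mice. Gbp6 (-1.76) and Ifi47 (-1.06) fell too, although 74.2% of the 31-base stretches of Gbp6 are shared with other genes. The other 6 calls were less steady, with water replicate 3 again the lowest water mouse of Irgm2, which had 1399.9, 1378 and 665 normalised counts in the water mice and 356, 473 and 550.2 in the ZnSO4 mice. Irgm2 (LFC -1.32) lost its call without water + PBS replicate 1 or 2 or any ZnSO4 + PBS mouse (adjusted p 0.0512 to 0.0936). Iigp1 (LFC -1.25) lost its call without water + PBS replicate 1 or ZnSO4 + PBS replicate 1 (adjusted p 0.0626 to 0.0647). Tgtp1 (LFC -1.24) lost its call without water + PBS replicate 1 or 2, any ZnSO4 + PBS mouse, water + Dex replicate 3 or ZnSO4 + Dex replicate 1 (adjusted p 0.052 to 0.13). Gm5431 (LFC -1.69) lost its call without water + PBS replicate 1 or 2 or any ZnSO4 + PBS mouse (adjusted p 0.054 to 0.0823). Gbp7 (LFC -0.85) lost its call without water + PBS replicate 1 or 2 or ZnSO4 + PBS replicate 1 or 2 (adjusted p 0.0633 to 0.109). Gbp8 (LFC -1.04) lost its call without ZnSO4 + PBS replicate 1 or 3 (adjusted p 0.0624 to 0.0632). For Tgtp1 and Gm5431, 84.4% and 47.2% of stretches are shared. The count of 10 was 5 without water + PBS replicate 1, 6 without water + PBS replicate 2, 4 without ZnSO4 + PBS replicate 1 and 3 without both libraries rich in B cell transcripts.

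Of 58 tested interferon-stimulated effectors 7 fell and none rose (0.954% and 0.747% over all genes tested). Of the 58, 51 had an LFC below 0 (median -0.34). Zbp1, a sensor of Z-form nucleic acids that can start necroptosis, had 979, 982 and 591 normalised counts in the water mice and 146, 167 and 195 in the ZnSO4 mice (a 5.02-fold fall; LFC -2.33 ± 0.22 (SE), adjusted p = 0.000262). Ubd (FAT10), a ubiquitin-like protein, had 699, 784 and 315 normalised counts in the water mice and 39.6, 119 and 36.1 in the ZnSO4 mice (LFC -3.20 ± 0.52 (SE), adjusted p = 0.00624). Ifit1bl1, of the RNA-binding Ifit family, had 4606, 3960.2 and 2701 normalised counts in the water mice and 948, 793 and 779.9 in the ZnSO4 mice (LFC -2.16 ± 0.17 (SE), adjusted p = 0.000119). All 3 genes separated the groups. Il18bp, the secreted inhibitor of Il18, Herc6, the ligase for Isg15, and Apol10a fell with LFCs of -2.06, -1.37 and -1.14. Ifit1 (LFC -0.88), of the same family as Ifit1bl1, lost its call without water + PBS replicate 1 or 2, ZnSO4 + PBS replicate 2 or 3, any water + Dex mouse or ZnSO4 + Dex replicate 1 (adjusted p 0.055 to 0.142). Without water + PBS replicate 3, whose interferon genes were the lowest of the water mice in several of these examples, 13 effectors were called. The necroptosis genes Mlkl and Ripk3 were not called: Mlkl had 211, 189 and 167 normalised counts in the water mice and 123, 116 and 150.1 in the ZnSO4 mice (LFC -0.54 ± 0.15 (SE), adjusted p = 0.0617) and Ripk3 had 554, 508 and 409 normalised counts in the water mice and 243, 315 and 287 in the ZnSO4 mice (LFC -0.80 ± 0.13 (SE), adjusted p = 0.0075), just under the cut-off on size.

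Interferon signalling gave 5 falls and 0 rises among 25 genes (0.954% and 0.747% over all genes tested). The falls were 2 without water + PBS replicate 1 or 2 or ZnSO4 + PBS replicate 3, and 3 without ZnSO4 + PBS replicate 1 or any water + Dex mouse. Nlrc5, the activator of MHC class I genes, had 310.3, 459 and 322 normalised counts in the water mice and 119.7, 187 and 102 in the ZnSO4 mice (LFC -1.42 ± 0.24 (SE), adjusted p = 0.00865). Batf2, an interferon-induced transcription factor, had 384, 428 and 398 normalised counts in the water mice and 162, 168 and 231 in the ZnSO4 mice (LFC -1.11 ± 0.13 (SE), adjusted p = 0.00115). Irf1 had 3183, 3462 and 2564 normalised counts in the water mice and 1844, 1773 and 1657 in the ZnSO4 mice (LFC -0.80 ± 0.10 (SE), adjusted p = 0.00148); the groups were well apart, but its LFC lay at the cut-off and was above -0.80 in 5 of the 12 fits, which lacked water + PBS replicate 1 or 2, ZnSO4 + PBS replicate 3 or water + Dex replicate 2 or 3 (LFC -0.792 to -0.709, adjusted p at most 0.0126). The feedback inhibitors Socs1 (LFC -1.41) and Socs3 (LFC -1.56) lost their calls in 6 and 9 of the 12 fits, among them each that left out water + PBS replicate 1 or 2 or ZnSO4 + PBS replicate 1 or 3, with adjusted p of at most 0.118 and 0.149. Ciita, the activator of MHC class II genes, was not called (LFC -0.997 ± 0.46, adjusted p = 0.254), with water replicate 2 and ZnSO4 replicate 2 the highest of their groups. Ifng was below the filter.

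The ISRE core, searched on either strand as 2 copies of GAAA with any 2 bases between them, stood in the same RefSeq windows of 13 of the 16 GTPases and 23 of the 47 effectors that have a window, and in 3.92% of all tested genes with one. Those lists were made of genes known to answer interferon, so that the shares describe the lists. Of the 106 called falls with a window 13 held it (12.3%), and of the 99 called rises 4 did (4.04%). Stretches of called falls are shown, 5′ to 3′ along each gene's own strand, with the core in capitals.
Igtp (chr11:58199512-58199541, plus strand): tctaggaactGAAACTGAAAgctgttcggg
Gm12250 (chr11:58183742-58183816, plus strand): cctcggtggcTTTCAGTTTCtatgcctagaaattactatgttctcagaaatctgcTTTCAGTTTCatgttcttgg
Ifit1bl1 (chr19:34599431-34599460, minus strand): actctgtaggTTTCATTTTCtgtaagttgg
Apol10a (chr15:77476986-77477015, plus strand): gaaatttttcTTTCACTTTCatgcattggg
Cxcl10 (chr5:92349083-92349112, minus strand): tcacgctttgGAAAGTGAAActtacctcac
Both copies in Gm12250 are the reverse complement of the core in Igtp, which lies near it on chromosome 11.

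Antigen presentation genes of both MHC classes were among the falls. All 29 tested class I genes had an LFC below 0 (median -0.53), against 8283 of the 15938 genes tested. An adjusted p under 0.05 was found for 16 (4.66% over all genes), and 3 of these passed the cut-off on size (0.954% over all genes). Psmb8 and Psmb9 are subunits of the immunoproteasome, which cuts peptides for class I. Psmb8 had 1393, 1429 and 1067 normalised counts in the water mice and 557, 619.6 and 538 in the ZnSO4 mice (LFC -1.18 ± 0.15 (SE), adjusted p = 0.00171). Psmb9 had 904, 893 and 725 normalised counts in the water mice and 354, 404 and 348 in the ZnSO4 mice (LFC -1.19 ± 0.16 (SE), adjusted p = 0.00237). The third was the peptide pump Tap1 (LFC -1.08, adjusted p = 0.0171), whose call was lost without water + PBS replicate 1 or 2 or ZnSO4 + PBS replicate 1 or 3 (adjusted p 0.0575 to 0.0746). The class I count was 5 without water + PBS replicate 3 and 8 without ZnSO4 + PBS replicate 2.

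All 15 class II genes also had an LFC below 0 (median -0.60), and 6 were called lower (0.954% over all genes tested). H2-DMa and H2-DMb1 form the chaperone that loads peptides on class II molecules. H2-DMa had 928, 1346 and 1010.0 normalised counts in the water mice and 502, 659.8 and 398 in the ZnSO4 mice (LFC -1.07 ± 0.18 (SE), adjusted p = 0.00874). H2-DMb1 had 899.8, 946 and 824 normalised counts in the water mice and 365, 385 and 328 in the ZnSO4 mice (LFC -1.31 ± 0.20 (SE), adjusted p = 0.0046), with 31.4% of its 31-base stretches shared. The class II chain H2-Aa (LFC -1.27) lost its call without water + PBS replicate 2 or ZnSO4 + PBS replicate 1 or 3 (adjusted p 0.0509 to 0.0654). The chains H2-Ab1 and H2-Eb1 and the invariant chain Cd74, which guards the peptide groove, were also called. H2-Ab1 (LFC -1.08) lost its call without water + PBS replicate 1 or 2 or ZnSO4 + PBS replicate 1 or 3 (adjusted p 0.0507 to 0.0814). H2-Eb1 (LFC -0.94) lost its call without water + PBS replicate 2 or 3, ZnSO4 + PBS replicate 1 or 3 or any water + Dex mouse (adjusted p 0.0521 to 0.137). Cd74 (LFC -1.10) lost its call without water + PBS replicate 2 or ZnSO4 + PBS replicate 1 or 3 (adjusted p 0.0697 to 0.0935). The list held 2 calls without water + PBS replicate 2, ZnSO4 + PBS replicate 1 or ZnSO4 + PBS replicate 3. B cells, macrophages and dendritic cells also carry class II molecules. All 15 B cell markers had an LFC below 0 (median -0.56, and -1.59 in the Dex mice) and none was called; their summed level was 70.8, 1465 and 364 CPM in the water mice and 202, 1063 and 34.8 CPM in the ZnSO4 mice. Replicate 2 of either group was therefore rich in B cell transcripts. With both of these libraries left out, a fit added after the data were seen, 5 class II genes were still called. Of 17 macrophage and dendritic cell markers 16 had an LFC below 0 (median -0.30) and 1 was called lower; their summed level was 542, 897 and 595 CPM in the water mice and 485, 649.5 and 442 CPM in the ZnSO4 mice, with overlap. The part of these cells in the class II values was not tested.

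Markers of T cells and intraepithelial lymphocytes were among the falls. Of 31 tested T cell and intraepithelial lymphocyte markers, all had an LFC below 0 (median -0.78), against 8283 of the 15938 genes tested. Of these markers 7 were called lower (0.954% over all genes) and 24 were not called. The list also holds general T cell genes. Gzma and Gzmb encode granzymes, the proteases of cytotoxic cells. Gzmb had 749, 571 and 373 normalised counts in the water mice and 115, 81.5 and 141 in the ZnSO4 mice (LFC -2.33 ± 0.33 (SE), adjusted p = 0.00304). Gzma had 1570.1, 1230.1 and 1023 normalised counts in the water mice and 399.8, 239.8 and 415 in the ZnSO4 mice (LFC -1.86 ± 0.28 (SE), adjusted p = 0.00479). Cd7 fell less (-1.14 ± 0.18), as did the coreceptor Cd8a (LFC -1.14 ± 0.21), which had 261, 322 and 226 normalised counts in the water mice and 135, 136 and 95.4 in the ZnSO4 mice and missed the threshold without ZnSO4 + PBS replicate 3 (adjusted p = 0.056). The integrin Itgae (CD103), the gut homing receptor Ccr9 and the cytokine receptor Il2rb were the other calls. Itgae (LFC -0.86) lost its call without water + PBS replicate 1 or 2 or any ZnSO4 + PBS mouse (adjusted p 0.0507 to 0.0914). Ccr9 (LFC -0.95) lost its call without any water + PBS mouse, any ZnSO4 + PBS mouse or ZnSO4 + Dex replicate 1 (adjusted p 0.0513 to 0.138). Il2rb (LFC -1.32) lost its call without any water + PBS mouse, ZnSO4 + PBS replicate 1 or 3, any water + Dex mouse or ZnSO4 + Dex replicate 1 or 3 (adjusted p 0.0606 to 0.172). Summed over the list, the level was 459, 582 and 359 CPM in the water mice and 202, 266 and 169 CPM in the ZnSO4 mice, with no overlap. In whole tissue, fewer cells of a type and less RNA per cell cannot be told apart. The sum contains Gzma and Gzmb, at a mean of 71.5 and 29.7 CPM over the 6 mice, so that their fall is part of it. The sum moves in the same direction as the interferon and MHC genes above, and its part in them was not tested. The count of 7 was 4 without water + PBS replicate 2, 4 without ZnSO4 + PBS replicate 1 and 3 without ZnSO4 + PBS replicate 3.

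Chemokine ligands, which draw such cells, gave 4 falls and no rise among 23 (0.954% and 0.747% over all genes tested). Cxcl9 and Cxcl10 attract activated T cells, and Ccl5 and Ccl8 attract T cells and monocytes. Cxcl10 had 149, 119 and 62.7 normalised counts in the water mice and 24.5, 36.6 and 37.05 in the ZnSO4 mice (LFC -1.75 ± 0.30 (SE), adjusted p = 0.00865). Ccl8 had 65.2, 39.1 and 36.1 normalised counts in the water mice and 8.49, 10.98 and 13.9 in the ZnSO4 mice (LFC -2.06 ± 0.32 (SE), adjusted p = 0.00544). Cxcl9 (LFC -1.76) missed the threshold without ZnSO4 + PBS replicate 1 (adjusted p = 0.0501). Ccl5 (LFC -1.16) did so in 7 of the 12 fits, namely without water + PBS replicate 1 or 2, any ZnSO4 + PBS mouse, water + Dex replicate 3 or ZnSO4 + Dex replicate 1 (adjusted p 0.0529 to 0.147). Without ZnSO4 + PBS replicate 1 the list held 2 calls.

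Few markers of other cell types were called. No listed marker of Paneth cells (18 tested), enterocytes (11), distal enterocytes (8), stem cells (9), tuft cells (7), smooth muscle (9), fibroblasts (7), endothelium (6) or red blood cells (5) was called. All 9 smooth muscle markers had an LFC above 0 (median 0.30). Their sum was 2139, 1758 and 2328 CPM in the water mice and 2119, 2055 and 3562 CPM in the ZnSO4 mice. Fibroblast markers, 5 of 7 with an LFC above 0, summed to 1283, 963 and 958 CPM against 1016, 1160 and 1747 CPM. In both sums the groups overlapped and ZnSO4 replicate 3 was the highest mouse. The part of this in the calls was not tested. Epcam, the marker of all epithelium, had 23598, 24804 and 26851 normalised counts in the water mice and 29305, 27810.3 and 29103 in the ZnSO4 mice (LFC 0.20 ± 0.18), an abundant transcript in every mouse. Of 8 colon markers 3 passed the filter, and their sum was at most 76.6 CPM. Goblet cell markers, 10 of 11 with an LFC above 0, summed to 13874, 13614 and 13923 CPM in the water mice. In the ZnSO4 mice the goblet cell sum was 17150, 15069 and 18262 CPM, with no overlap. The Paneth cell lysozyme Lyz1 had 102657, 69299 and 107581 normalised counts in the water mice and 93837, 63553 and 71763 in the ZnSO4 mice (LFC -0.29 ± 0.36), with overlapping groups. Mmp7, which activates Paneth cell defensins, had 3817, 2617 and 3476 normalised counts in the water mice and 2301, 1907 and 2282 in the ZnSO4 mice (LFC -0.61 ± 0.23, adjusted p = 0.157). Of the 18 Paneth cell markers 16 had an LFC below 0 (median -0.21), and the groups overlapped in their sum. The defensin gene Defa34, which is not on the list, was called, and the paper gives it as lower with ZnSO4. Other genes hold 92.5% of its 31-base stretches, so that its count is uncertain. The stem cell marker Lgr5 had 213, 159.5 and 240.4 normalised counts in the water mice and 343, 303 and 381 in the ZnSO4 mice (LFC 0.74 ± 0.15 (SE), adjusted p = 0.0204), under the cut-off on size. Muc2, the main mucin of goblet cells, had 12158, 11828 and 11813 normalised counts in the water mice and 18792, 19278 and 27707 in the ZnSO4 mice and was called higher (LFC 0.88 ± 0.20 (SE), adjusted p = 0.0329), but kept the call in only 4 of 12 fits and lost it without any water + PBS or water + Dex mouse or without ZnSO4 + PBS replicate 1 or 3 (adjusted p 0.0516 to 0.128). Globin and other red blood cell transcripts summed to 16.2, 24.6 and 26.1 CPM in the water mice and 49.3, 84.9 and 20.1 CPM in the ZnSO4 mice, with the most in ZnSO4 replicate 2; without ZnSO4 + PBS replicate 3, 3 of the 5 were called higher.

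Single members of other marker lists were called. Tac1, the substance P precursor of enteroendocrine cells and neurons, had 304, 231 and 194 normalised counts in the water mice and 127, 107 and 116 in the ZnSO4 mice (LFC -1.06 ± 0.18 (SE), adjusted p = 0.00767). Ret, a receptor kinase of enteric neurons, had 189.7, 169.6 and 178 normalised counts in the water mice and 463, 312 and 561 in the ZnSO4 mice (LFC 1.31 ± 0.18 (SE), adjusted p = 0.00273). Adh6a, an alcohol dehydrogenase of the proximal list, had 240.3, 218 and 238 normalised counts in the water mice and 88.6, 65.9 and 32.4 in the ZnSO4 mice (LFC -1.90 ± 0.29 (SE), adjusted p = 0.00451). Tac1, Ret and Adh6a each separated the groups. Tac1 went against its list: of the 12 enteroendocrine markers tested 9 had an LFC above 0 (median 0.21). The enteroendocrine sum was 380, 365 and 391 CPM in the water mice. In the ZnSO4 mice it was 503, 446 and 443 CPM, higher with no overlap. Of the 10 proximal enterocyte markers tested 9 had an LFC below 0 (median -0.66), though only Adh6a was called. The proximal sum was 328, 332 and 316 CPM in the water mice and 300, 203 and 199 CPM in the ZnSO4 mice, with no overlap. The 8 distal enterocyte markers had a median LFC of -0.10. Derl3, of plasma cells, and Itgam, of macrophages, were called lower in 4 and 9 of the 12 fits; Derl3 lost its call without any PBS mouse, water + Dex replicate 3 or ZnSO4 + Dex replicate 1 (adjusted p 0.0505 to 0.13), and Itgam without water + PBS replicate 3 or ZnSO4 + PBS replicate 1 or 3 (adjusted p 0.056 to 0.0734). Their LFCs over all mice were -0.90 and -0.82. For Itgam, 68.1% of 31-base stretches occur in other genes. Plasma cell markers summed to 15696, 16804 and 14968 CPM in the water mice and 13297, 11622 and 10212 CPM in the ZnSO4 mice.

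Transporters of the brush border moved in both directions, 3 up and 3 down of 46 (0.747% and 0.954% over all genes tested). Slc28a1, a carrier of pyrimidine nucleosides, had 0.973, 1.003 and 3.80 normalised counts in the water mice and 40.5, 23.8 and 22.2 in the ZnSO4 mice (LFC 3.81 ± 0.52 (SE), adjusted p = 0.00273). Slc28a3, the broad nucleoside carrier, had 407, 315 and 295 normalised counts in the water mice and 143, 135 and 144 in the ZnSO4 mice (LFC -1.26 ± 0.12 (SE), adjusted p = 0.000262). The groups were apart in both, in opposite directions. The pyrimidine enzymes Cda and Upp1, picked after their values were seen, also diverged. Cda, which deaminates cytidine, had 147, 121 and 118 normalised counts in the water mice and 516, 349.6 and 364 in the ZnSO4 mice (LFC 1.67 ± 0.19 (SE), adjusted p = 0.000983). Upp1, which cleaves uridine, had 5431, 5409 and 4270.1 normalised counts in the water mice and 947, 804 and 983 in the ZnSO4 mice (LFC -2.47 ± 0.14 (SE), adjusted p = 6.55e-06). The proton exchanger Slc9a3 (NHE3) had 734, 458 and 269.9 normalised counts in the water mice and 73.5, 97.9 and 92.6 in the ZnSO4 mice (LFC -2.47 ± 0.35 (SE), adjusted p = 0.00322), and water replicate 1 was the highest. Aqp7, a glycerol channel, and Slc6a20a, a proline carrier, rose with LFCs of 1.82 and 1.12. The carbonic anhydrase Car4 fell (LFC -1.57 ± 0.35 (SE), adjusted p = 0.028), a call lost without water + PBS replicate 1 or any ZnSO4 + PBS mouse (adjusted p 0.0532 to 0.108).

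Few genes passed both cut-offs in the other lists. Of 36 chaperones 31 had an LFC below 0 (median -0.43), against 8283 of the 15938 genes tested. An adjusted p under 0.05 was found for 13 (4.66% over all genes), and 3 were called lower (0.954% over all genes). Their summed level was 8084, 7247 and 9026 CPM in the water mice and 6144, 5878 and 5999 CPM in the ZnSO4 mice, with no overlap. The falls were Chac1 (LFC -1.71), Creld2 (-0.96) and Hyou1 (-0.80), all of the endoplasmic reticulum or its stress response. Chac1 lost its call without water + PBS replicate 1 or ZnSO4 + PBS replicate 1 (adjusted p 0.0549 to 0.088), and Creld2 without ZnSO4 + PBS replicate 3 (adjusted p = 0.05). Hyou1 lost its call without water + PBS replicate 1 or 3, ZnSO4 + PBS replicate 2 or 3 or water + Dex replicate 2 or 3 (LFC -0.79 to -0.69). Without any of those PBS mice its adjusted p missed the threshold too (0.0505 to 0.0739). The count of falls was 1 without water + PBS replicate 1 or ZnSO4 + PBS replicate 3. Of 33 cell cycle genes 29 had an LFC below 0 (median -0.26). Their summed level was 2463, 2385 and 2227 CPM in the water mice and 1868, 2025 and 2049 CPM in the ZnSO4 mice, with no overlap. Ccnd1 (cyclin D1) was the 1 called lower, with 1797, 1378 and 1496 normalised counts in the water mice and 727, 677 and 719.7 in the ZnSO4 mice (LFC -1.14 ± 0.11 (SE), adjusted p = 0.000414). The cycle inhibitor Cdkn1c and the clock repressor Nr1d1 rose (LFC 0.94 and 1.09), and both calls were lost without water + PBS replicate 1 or 3 or ZnSO4 + PBS replicate 1 or 3 (adjusted p 0.0534 to 0.108). Among 32 epithelial transcription factors Barx2, a homeobox factor, fell from 311, 398 and 343 normalised counts in the water mice to 114, 98.8 and 102 in the ZnSO4 mice (LFC -1.74 ± 0.15 (SE), adjusted p = 0.000203), and Id4 (LFC 0.88) kept its call as a rise in 3 of 12 fits, which lacked water + PBS replicate 3, ZnSO4 + PBS replicate 2 or ZnSO4 + Dex replicate 2 (adjusted p 0.0628 to 0.178 in the others).

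**Figure D4:**
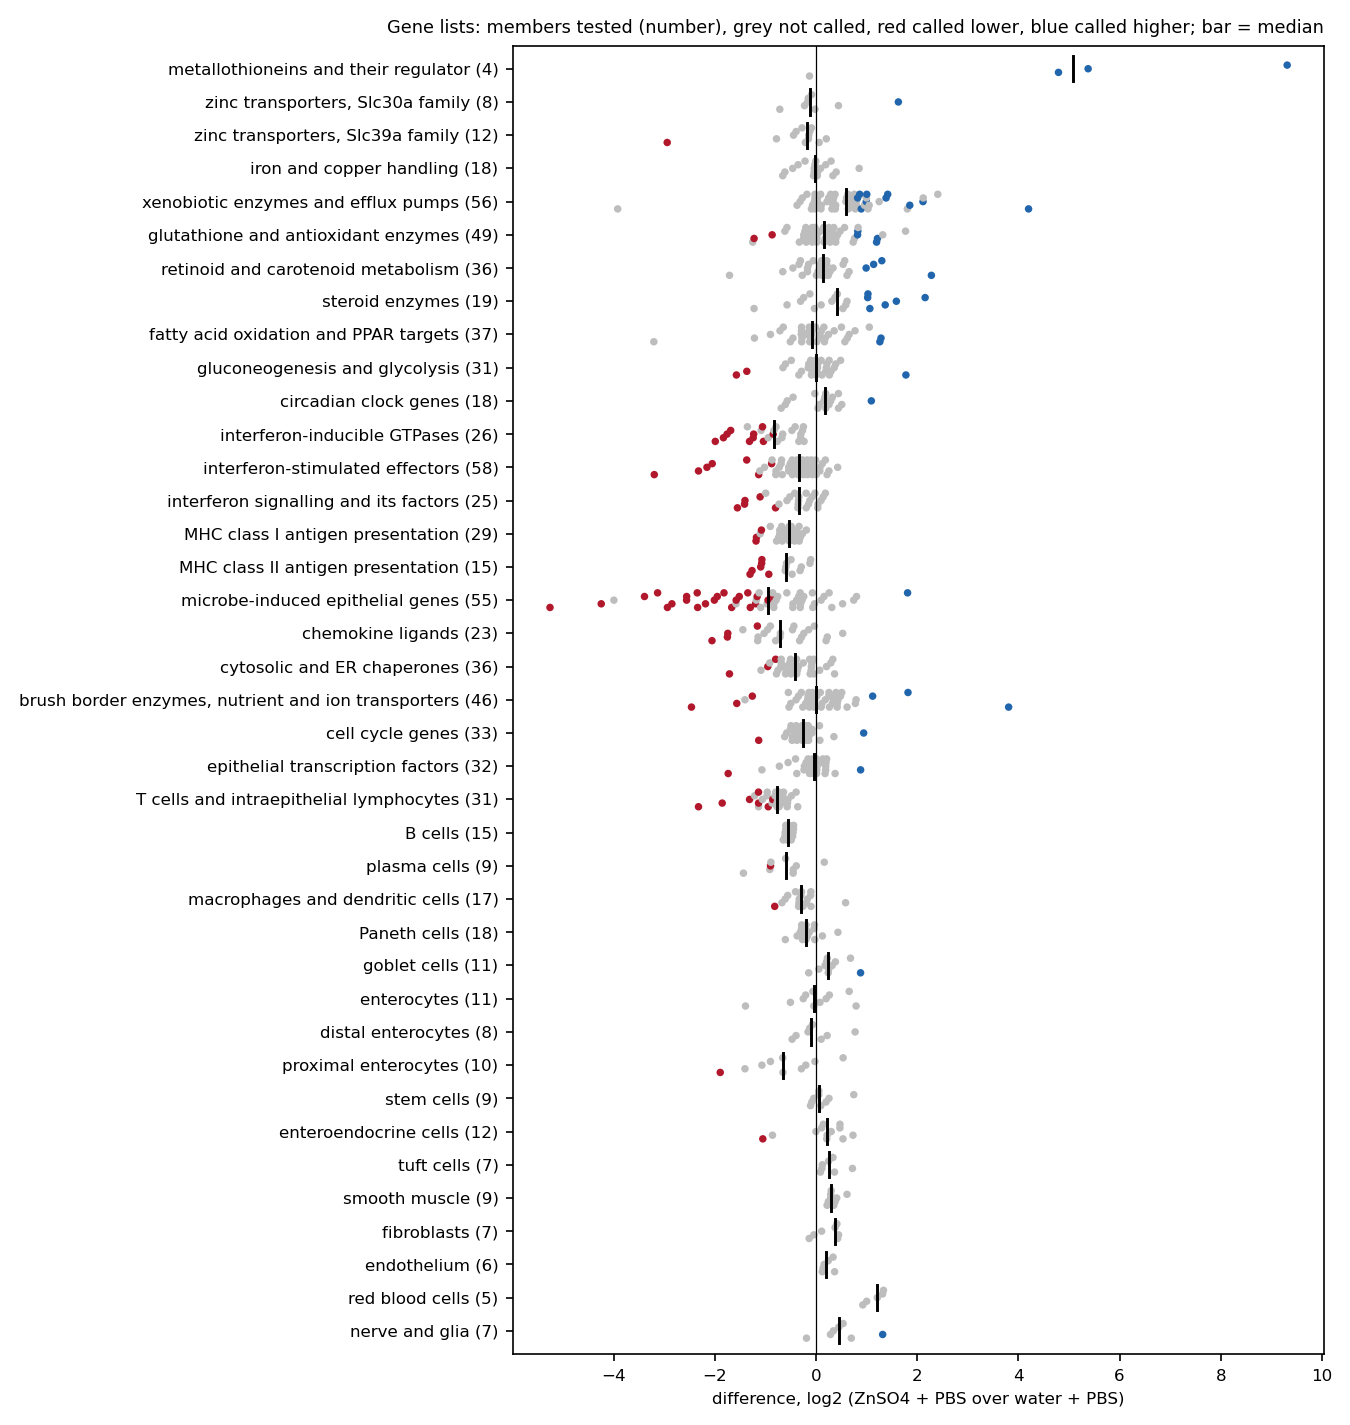
Each point is a tested gene of a list (rows, with the number tested), at its LFC of ZnSO4 over water on the x axis; called rises are blue, called falls red, the rest grey, and the black bar is the median. The medians of the interferon, MHC and T cell lists lie left of 0, from -0.84 to -0.34. So do those of chemokine ligands (-0.71), proximal enterocytes (-0.66), plasma cells (-0.60), B cells (-0.56) and chaperones (-0.43), among others. The microbe-induced list has the most falls, while the xenobiotic and steroid lists reach to the right.

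Several of the strongest changes were in none of the lists. Meltf (melanotransferrin), an iron-binding membrane protein, had 36.97, 92.3 and 99.8 normalised counts in the water mice and 2.83, 0.915 and 0 in the ZnSO4 mice (LFC -5.81 ± 0.70 (SE), adjusted p = 0.00123), the called fall with the largest LFC. Acta1, the actin of skeletal muscle, had 396, 1234 and 1584 normalised counts in the water mice and 69.8, 78.7 and 37.98 in the ZnSO4 mice (LFC -4.10 ± 0.50 (SE), adjusted p = 0.00141), while no smooth muscle marker was called. Tat, which degrades tyrosine, had 411, 279.9 and 219 normalised counts in the water mice and 23.6, 29.3 and 37.05 in the ZnSO4 mice (LFC -3.33 ± 0.32 (SE), adjusted p = 0.00035). The serine protease Prss27 fell (LFC -2.996 ± 0.38), and the antibody gene segment Ighv1-69 did too (LFC -3.48 ± 0.59), with 66.9% of its 31-base stretches shared. Among the rises, Raet1e, a ligand of the lymphocyte receptor NKG2D, had 24.3, 15.1 and 19.95 normalised counts in the water mice and 148, 84.2 and 167 in the ZnSO4 mice (LFC 2.74 ± 0.28 (SE), adjusted p = 0.000456), with 55.5% of its stretches shared. Cpn1, the catalytic subunit of carboxypeptidase N, the sorting receptor Sorcs3 and the ligase adaptor Spsb4 rose with LFCs of 2.11, 2.01 and 1.96. Agtpbp1, a carboxypeptidase that trims tubulin tails, had 127, 183 and 130.2 normalised counts in the water mice and 272, 212 and 426 in the ZnSO4 mice (LFC 1.05 ± 0.25 (SE), adjusted p = 0.0362); the groups did not overlap, but the call held in 5 of 12 fits and was lost without water + PBS replicate 1 or 3, ZnSO4 + PBS replicate 1 or 3 or any water + Dex mouse (adjusted p 0.0503 to 0.123).

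Zinc was also compared with water in mice that had received Dex, 3 against 3, which share no mouse with the comparison above. Of the 119 rises 118 had the same direction there and 74 an adjusted p under 0.05; of the 152 falls 151 and 101 did. None of the 271 genes had an adjusted p under 0.05 in the opposite direction. ZnSO4 + Dex replicate 2 was less like its group than any other library. The chi-square per degree of freedom of its counts was 29.3 with replicate 1 and 45.3 with replicate 3. For all other pairs within a group it was 8.30 to 20.3. Without this library, 130 rises and 170 falls were called in the PBS comparison. Over all tested genes 8147 of 15938 had an LFC above 0 in the Dex mice, and 696 (4.37%) had an adjusted p under 0.05. The median LFC of the rises was 1.13 with PBS and 0.97 with Dex, and that of the falls -1.35 and -1.19; calls made in the PBS mice favour large values there. The exceptions in direction, named after their values were seen, were the antibody segment Igkv9-124 (LFC -2.19 with PBS, 0.90 with Dex) and the noncoding gene A930038B10Rik (1.77 and -0.37). Both calls were lost without water + PBS replicate 1 or any ZnSO4 + PBS mouse, among other libraries (adjusted p 0.0682 to 0.112 and 0.0515 to 0.141).

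The metallothioneins rose in the Dex mice by LFCs of 4.42 (Mt1), 5.06 (Mt2) and 8.30 (Mt4), and Slc39a4 fell by 3.49 on the log2 scale. Saa1 (LFC -4.36), Reg3g (-2.82), Duoxa2 (-3.91), Zbp1 (-2.51), Psmb8 (-1.18) and Gzmb (-1.87) were lower there as well, each with an adjusted p of at most 0.0079. For Acox2 the LFC was 1.28 with PBS and 0.38 with Dex (adjusted p = 0.246), and for Slc9a3 it was -2.47 and -0.94 (adjusted p = 0.121). Such gaps were not shown to be differences: the interaction of ZnSO4 with Dex in edgeR gave 0 genes at an adjusted p under 0.05 and 794 at an unadjusted p under 0.05, and DESeq2 gave 0 and 625.

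**Figure D5:**
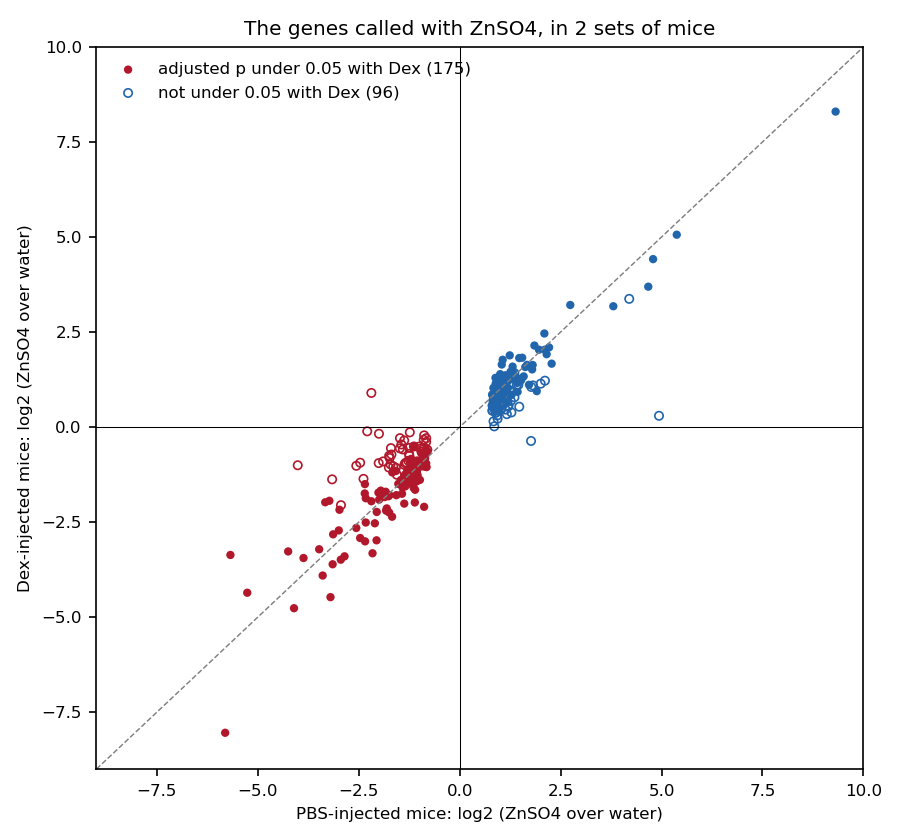
Each point is 1 of the 271 called genes, with its LFC of ZnSO4 over water in the PBS mice (x axis) and in the Dex mice (y axis); rises are blue, falls red, and filled points (175) have an adjusted p under 0.05 in the Dex mice. The points lie around the dashed line of equal LFC, and 2 lie in the quadrants of opposite sign.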

How the data were processed

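Ileal RNA of 12 mice was sequenced single-end from stranded libraries. The deposited values are raw counts per gene: the authors aligned reads to mm10 with HISAT2 2.0.4, left out reads that map to several places and counted with featureCounts; the annotation release and strand setting are not given in the sources used here. All 12 libraries, in 4 groups of 3 by their labels, were fitted in 1 model with edgeR 4.0.16 (R 4.3.3; TMM factors, filterByExpr with a minimum count of 10, quasi-likelihood test), and ZnSO4 + PBS was contrasted with water + PBS. Genes were called where the p-value after Benjamini-Hochberg adjustment was under 0.05 and the LFC was larger than 0.8 in either direction. Normalised counts are counts over effective library size, times the mean effective size. SEs are LFC over the root of F. Mean ± SD is over 3 mice. The p-values rest on the spread between mice within the 4 groups, estimated from all 12 libraries and moderated across genes. Intervals cover counting error only, since the libraries have no molecular identifiers.

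Genes were named by rule: the 12 largest rises and falls without overlap that held in all 12 fits leaving out 1 library and had a mean of at least 1 CPM, then called members of gene lists, then defining members and genes of interest to the study. A defining member that the rule names is not reported here. The members and lists were chosen with earlier results of these data known. On data simulated for this comparison over 15938 genes, 54% of changes with a true LFC of 1 in size and 92% of those of 2 were called. Alternatives were DESeq2 1.42.0, other factors, filters and cut-offs, 6 libraries only, the replicate number as a block and libraries left out; a fit without the 2 libraries richest in B cell markers was chosen after seeing the data. Promoter sequences come from RefSeq (GRCm38.p6) and were matched by symbol for 11429 of the tested genes.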

Additional observations from a re-analysis of the deposited data

How the results depend on the processing

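The 119 rises and 152 falls stayed within 1.5 times under RLE (124 and 148) and upper-quartile factors (132 and 144), other filters, DESeq2 (144 and 175) and the 6 libraries alone (87 and 107), and the median LFC of all genes moved by at most 0.026 under another scaling. The cut-off on size mattered most: without it 337 rises and 405 falls were called, and glmTreat, which tests against an LFC of 0.8, called 15 and 25. Leaving out 1 library gave 77 to 130 rises and 94 to 170 falls, and leaving out both libraries rich in B cell transcripts gave 73 and 84; fewer samples enter those fits. Called genes that also had an adjusted p under 0.05 in the same direction in the Dex mice numbered 175, or 124 to 187 with 1 library left out, 356 without the cut-off on size and 26 with glmTreat. Nr1i2, not called (LFC 0.03), had LFCs from -0.083 (without ZnSO4 + PBS replicate 1) to 0.116 (without water + PBS replicate 3) when 1 library was left out, with -0.018 without water + PBS replicate 2. Nox1, also not called (LFC 0.26), ranged from -0.093 (without ZnSO4 + PBS replicate 3) to 0.434 (without water + PBS replicate 3). Mice share only a replicate number: deviations of same-numbered PBS mice correlated at 0.046, 0.457 and -0.037, so that the numbers were not taken as pairs, and a fit with the number as a block called 104 rises and 142 falls. Of 3477 values of the 152 named genes under alternatives, 2950 kept direction and side of the threshold, 513 lost the call, 11 gained it and 3 reversed. The depth limits the low genes, such as Mt4 and Saa2.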
